A study of Rattus norvegicus with 6 samples.

Results

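Collagen chain genes were examined in the ileum of Zucker fa/fa rats after duodenum-jejunum bypass (DJB). The members are the genes whose only symbol in the annotation of the array platform reads Col, a number, a and a number. There were 25 such genes, on 27 rows, among the 14506 genes tested. For the gene with several rows, Col6a4, the row with the highest mean over the 6 arrays was taken. By class, 10 members encode fibrillar chains, 3 encode basement membrane chains and 12 encode other chains.

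The series compared 3 rats after DJB with 3 rats after a sham operation, with RNA of each rat on 1 Affymetrix rat whole-transcript array. In DJB rats the duodenum was tied off, food was led straight into the jejunum, and bile and pancreatic juice rejoined it further down. In sham rats the gut was cut and rejoined so that food kept its normal course. All 6 rats carried fa/fa, an obesity genotype with a defective leptin receptor, were operated on at 20 weeks of age and were sampled 14 days later. The samples are whole ileum, so epithelium, connective tissue, muscle, vessels and nerves all contributed RNA. The ileal marker Fabp6, the bile acid binding protein, was high on every array, between 13.81 and 13.97 in DJB and between 13.44 and 13.67 in sham. Cdh17, an intestinal cadherin that is a general marker of enterocytes here, lay between 12.44 and 12.53 in DJB and between 12.32 and 12.49 in sham. Slc10a2, the ileal bile acid transporter, was also well above the median of all rows, at 11.91 to 12.46 in DJB and 9.90 to 10.75 in sham, and it differed between the groups by 1.73 ± 0.22 (limma adjusted p = 0.0106). All levels below are on the log2 scale, as normalised by RMA. Array medians over all rows lay between 6.08 and 6.19 in DJB, with DJB 1 highest, and between 6.09 and 6.11 in sham. Precision is limited by the small number of arrays.

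Collagens are the main structural proteins of connective tissue, built from chains that wind around each other into a stiff, rope-like helix. Fibrillar collagens of types I, III and V form the fibres of the submucosa, the layer that gives the intestinal wall its strength, and are made by fibroblasts and smooth muscle cells. Type IV collagen forms the sheet-like network of basement membranes under epithelium and around vessels and muscle cells. Other collagens coat fibrils, anchor basement membranes or span cell membranes.

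The chains of types I and III stood highest above sham, by 0.52 to 0.71 on the log2 scale, and every fibrillar chain gene had a higher mean in DJB than in sham rats. The basement membrane chains differed from sham by 0.17 at most, for Col4a1, which ranged between 0.03 without DJB 1 and 0.32 without DJB 2. No single collagen gene passed the test. Of the 25 members, 0 passed limma's adjusted p threshold of 0.05, which 0.772% of all genes tested passed. At an unadjusted p under 0.05 in the same fit, 5 members were higher in DJB, namely Col1a1, Col1a2, Col3a1, Col5a2 and Col8a1, where 9.82% of all genes were. By the same criterion 0 members were lower, where 4.45% of all genes were.

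**Figure D1:**
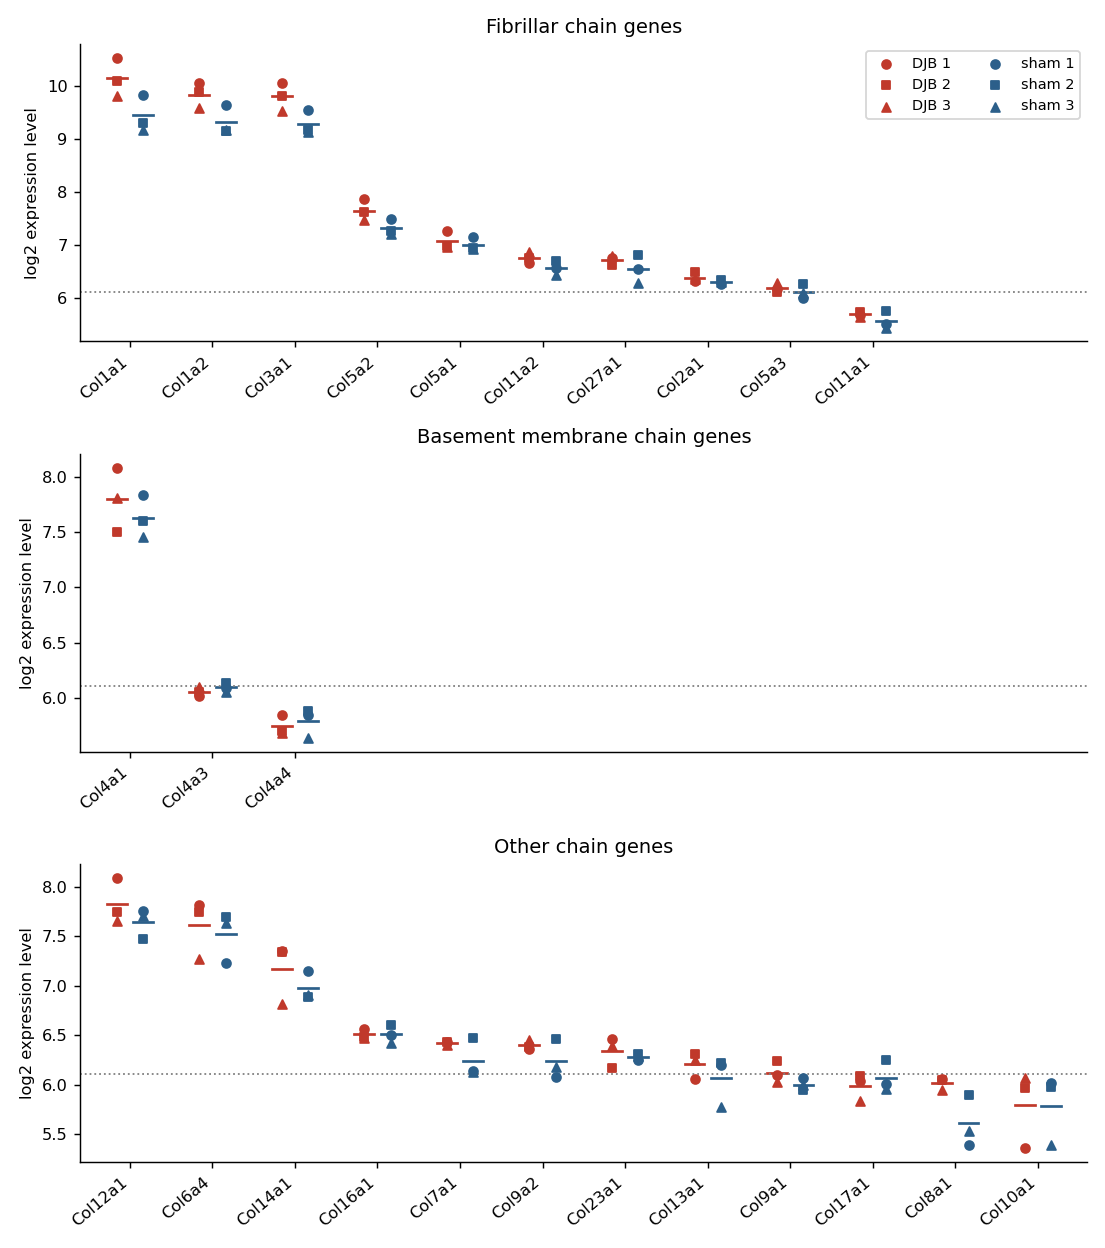
Log2 expression level of each collagen chain gene on every array, in 3 panels by class, with DJB arrays in red left of sham arrays in blue. Symbols tell the arrays apart, short lines are group means and the dotted line is the median of all rows, 6.11. DJB 3 lies at or near sham 1 for Col1a1, Col1a2 and Col3a1, and Col8a1 is the member whose groups do not overlap.

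Promoter sequences are shown for the genes of lowest p that have one in the RefSeq table of build GRCr8 (Col1a2, Col5a2 and Col8a1), and for Col5a1, whose product joins that of Col5a2 in type V collagen but which differed little between the groups. Each is the 250 bases before the annotated start, read 5′ to 3′ on the strand of the gene. Capitals mark matches on either strand to 3 short motifs. The first is CCAAT, read as ATTGG on the other strand. The next is GGGCGG, read there as CCGCCC, and the last is TATAAA, read there as TTTATA.
Col1a2 promoter, chr4:33518307-33518556, plus strand: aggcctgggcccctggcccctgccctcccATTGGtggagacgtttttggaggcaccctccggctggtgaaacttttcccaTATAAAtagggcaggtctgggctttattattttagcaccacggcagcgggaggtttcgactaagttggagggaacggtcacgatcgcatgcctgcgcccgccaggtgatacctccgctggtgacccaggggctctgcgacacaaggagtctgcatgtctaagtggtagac
Col5a2 promoter, chr9:55090152-55090401, minus strand: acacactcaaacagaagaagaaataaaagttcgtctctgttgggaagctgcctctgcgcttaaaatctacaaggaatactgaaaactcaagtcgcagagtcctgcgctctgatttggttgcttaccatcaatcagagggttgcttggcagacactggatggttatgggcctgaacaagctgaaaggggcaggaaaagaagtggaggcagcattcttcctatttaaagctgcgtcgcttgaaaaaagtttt
Col8a1 promoter, chr11:56246532-56246781, plus strand: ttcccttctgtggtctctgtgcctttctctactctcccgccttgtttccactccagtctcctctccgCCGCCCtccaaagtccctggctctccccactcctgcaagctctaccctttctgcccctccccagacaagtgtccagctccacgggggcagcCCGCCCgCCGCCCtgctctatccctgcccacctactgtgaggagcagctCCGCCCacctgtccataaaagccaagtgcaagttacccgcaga
Col5a1 promoter, chr3:31606630-31606879, plus strand: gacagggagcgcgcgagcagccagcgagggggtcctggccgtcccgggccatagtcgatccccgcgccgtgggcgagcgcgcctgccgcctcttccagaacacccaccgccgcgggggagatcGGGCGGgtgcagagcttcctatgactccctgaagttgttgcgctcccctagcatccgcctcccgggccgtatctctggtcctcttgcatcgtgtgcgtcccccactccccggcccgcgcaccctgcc
Col1a2 held 1 match to CCAAT and 1 to TATAAA, Col8a1 held 4 to GGGCGG, Col5a1 held 1 to GGGCGG, and Col5a2 held 0 matches to any of these motifs. No matches overlapped. Among the 33469 promoters of the table, 34.0% held CCAAT, 30.5% GGGCGG and 12.9% TATAAA on either strand. Of the 20 members with a promoter there, 7 held CCAAT, 11 held GGGCGG and 4 held TATAAA.

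Type I collagen, the most abundant fibre protein of the body, is built from the products of Col1a1 and Col1a2. Col1a1 had levels of 10.54, 10.09 and 9.82 in DJB rats, against 9.84, 9.31 and 9.18 in sham rats. DJB 1 and DJB 2 lay above every sham array, and DJB 3 lay just below sham 1. The group means were 10.15 ± 0.36 in DJB and 9.45 ± 0.35 in sham (SD, n = 3 each), a difference of 0.71 ± 0.21 (SE), or 1.63-fold, with limma adjusted p = 0.190. By exact permutation of the arrays (two-sided), Col1a1 had p = 0.2, and 3 against 3 arrays cannot give less than 0.1. Col1a2 had levels of 10.06, 9.88 and 9.59 in DJB rats, against 9.65, 9.16 and 9.17 in sham rats. Here too DJB 3 overlapped sham 1, and the difference was 0.52 ± 0.16 (limma adjusted p = 0.212). In bulk tissue, more or fewer cells of a type and more or less RNA per cell cannot be told apart. This holds for these differences and for every one below.

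Type III collagen, a chain of a single kind encoded by Col3a1, is laid down with type I in the gut wall and in healing tissue. Col3a1 had levels of 10.06, 9.82 and 9.54 in DJB rats, against 9.55, 9.17 and 9.14 in sham rats. The pattern over the arrays was that of type I, with DJB 1 highest, sham 2 and sham 3 lowest, and DJB 3 level with sham 1. The difference was 0.52 ± 0.16 (limma adjusted p = 0.191), with group means of 9.81 ± 0.26 in DJB and 9.29 ± 0.23 in sham (SD, n = 3 each). Leaving out 1 array in turn moved the differences of Col1a1, Col1a2 and Col3a1 within 0.51 to 0.90, 0.40 to 0.68 and 0.39 to 0.65, and neither this nor any other alternative tried brought 1 of them past the threshold.

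Type V collagen sits inside type I fibrils and sets their diameter. Col5a2 had levels of 7.87, 7.62 and 7.47 in DJB rats, against 7.50, 7.26 and 7.21 in sham rats. Again only DJB 3 fell within the sham range, and the difference was 0.33 ± 0.13 (limma adjusted p = 0.301). Col5a1 had levels of 7.26, 6.98 and 6.97 in DJB rats, against 7.15, 6.94 and 6.92 in sham rats. Its groups overlapped broadly, with a difference of 0.07 ± 0.12 (limma adjusted p = 0.838) that turned to -0.03 without DJB 1. Col5a3, the third chain gene of type V, differed by 0.07 ± 0.10.

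The remaining fibrillar chain genes belong to cartilage and minor fibrils. Col11a2, a chain of type XI, which nucleates fibrils, differed by 0.19 ± 0.11, with levels of 6.66, 6.76 and 6.87 in DJB rats against 6.57, 6.70 and 6.44 in sham rats. Col27a1 (0.18 ± 0.14), Col11a1 (0.13 ± 0.11) and Col2a1 (0.09 ± 0.09), the chain of cartilage fibrils, stood closer to sham. All of these had overlapping groups and levels between 5.44 and 6.87, near the median of all rows. Over the 10 fibrillar genes the median difference was 0.19, against 0.05 for all genes tested. It was 0.11 without sham 3 and 0.28 without sham 2. The count of 10 of 10 with a higher mean in DJB stood beside 61.7% of all genes, and after centring each array on its median it was again 10 of 10, beside 54.7% of all genes.

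**Figure D2:**
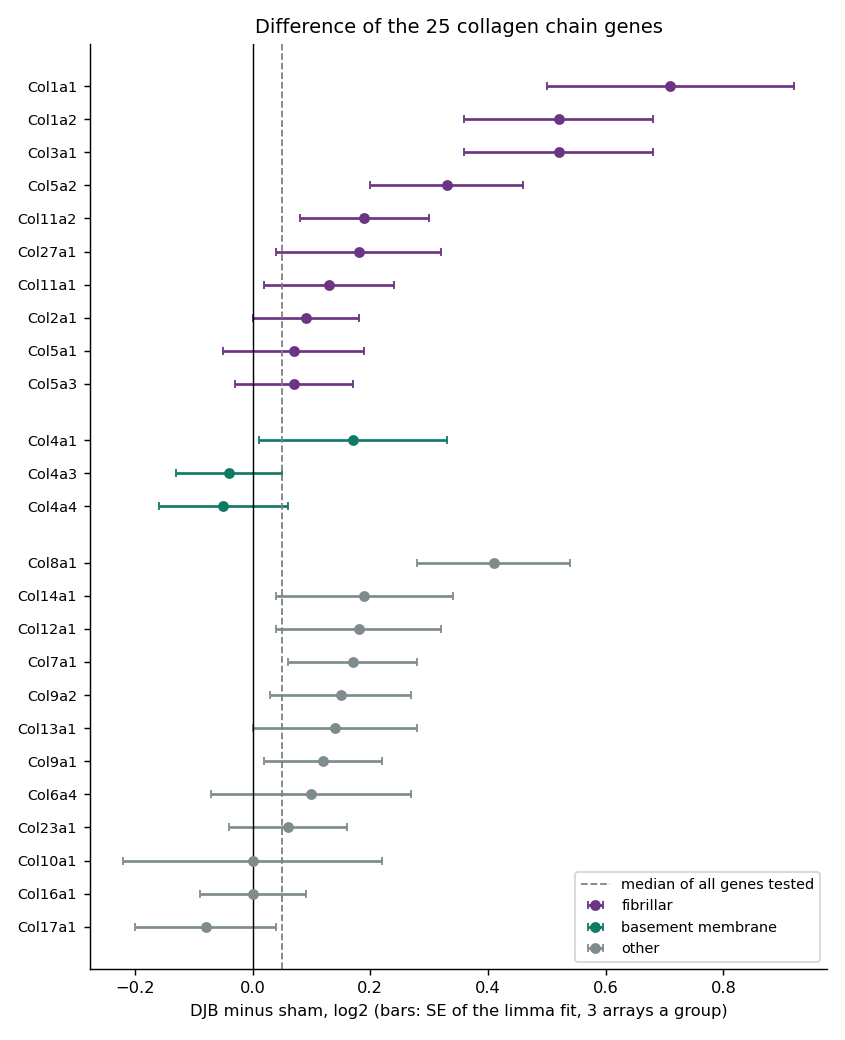
Difference DJB minus sham on the log2 scale for each collagen chain gene (x axis), with the SE of the limma fit as bars, coloured by class; the solid line is 0 and the dashed line is the median of all genes tested, 0.05. Col1a1 lies furthest to the right at 0.71, and Col17a1 furthest to the left at -0.08.

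Basement membrane chains were measured for 3 genes. Col4a1, a chain of the type IV network present in nearly all basement membranes, had levels of 8.08, 7.50 and 7.81 in DJB rats, against 7.83, 7.60 and 7.45 in sham rats. The groups overlapped, since DJB 2 lay below sham 1 and sham 2, and the difference was 0.17 ± 0.16 (limma adjusted p = 0.676). Col4a3 and Col4a4, chains of a specialised type IV network known best from the kidney filter, differed by -0.04 ± 0.09 and -0.05 ± 0.11, and both lay below the median of all rows. The class median was -0.04, and 1 of 3 genes was higher in DJB, where 61.7% of all genes were.

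Among the other collagens, Col8a1 was the member whose 3 DJB values all lay above the sham values. It encodes a chain of type VIII, a short collagen that forms networks around vessels and smooth muscle. Its levels were 6.06, 6.05 and 5.95 in DJB rats, against 5.39, 5.90 and 5.53 in sham rats. The DJB arrays lay within 0.12 of one another, and sham 2 came close to them. The difference was 0.41 ± 0.13 (limma adjusted p = 0.223) on a row below the median of all rows. Groups that did not overlap were thus found for 1 of 25 members with DJB higher, where 14.5% of all genes had this, and for 0 of 25 with DJB lower, where 6.56% had it. These shares lie below those of all genes. Col10a1, the growth plate member of the same network class, spread from 5.36 to 6.07 in DJB and from 5.39 to 6.02 in sham, with a mean difference of 0.00 ± 0.22.

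FACIT collagens, which lie on the surface of fibrils and link them to other matrix, were measured for 5 genes, and none of these had groups that did not overlap. Col12a1 had levels of 8.09, 7.74 and 7.65 in DJB rats, against 7.75, 7.47 and 7.70 in sham rats, and differed by 0.18 ± 0.14. Col14a1 had levels of 7.35, 7.34 and 6.82 in DJB rats, against 7.15, 6.89 and 6.91 in sham rats. DJB 3 was the lowest of its 6 arrays, and the difference of 0.19 ± 0.15 became 0.36 without DJB 3 and 0.10 without DJB 1 or without DJB 2. Col9a2 (0.15 ± 0.12) and Col9a1 (0.12 ± 0.10), chains of a collagen of cartilage, and Col16a1 (0.00 ± 0.09) made up the rest.

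Col6a4, a chain of the beaded filament type VI, had levels of 7.82, 7.74 and 7.27 in DJB rats, against 7.23, 7.69 and 7.63 in sham rats. Its difference of 0.10 ± 0.17 was smaller than the SD within either group, and its other rows gave 0.21 and 0.04. Col7a1, which forms the fibrils that anchor epithelium to the matrix beneath, had DJB levels of 6.43, 6.43 and 6.40 and sham levels of 6.14, 6.47 and 6.13, a difference of 0.17 ± 0.11. The membrane-spanning collagens Col13a1 (0.14 ± 0.14), Col23a1 (0.06 ± 0.10) and Col17a1 (-0.08 ± 0.12), the last a part of hemidesmosomes, all differed by no more than their SE. Col17a1 had levels of 6.04, 6.09 and 5.84 in DJB rats, against 6.01, 6.25 and 5.96 in sham rats, with overlapping groups. Over the 12 other collagens the median difference was 0.13, and 11 had a higher mean in DJB, beside 61.7% of all genes. After centring each array on its median it was 9 of 12, beside 54.7% of all genes.

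Pairs of chain genes sharing a type number, whether or not their chains assemble together, were also set against each other within each array. Over 9 such pairs, each tested by an exact two-sided permutation test with Benjamini-Hochberg adjustment over the pairs, the smallest p was the 0.1 that the design allows (adjusted p = 0.45). Col5a1 minus Col5a2 was -0.61, -0.63 and -0.49 in DJB rats, against -0.35, -0.31 and -0.29 in sham rats. The groups did not overlap. The shift of -0.26 restates the group differences given above, 0.33 for Col5a2 and 0.07 for Col5a1. Col1a1 minus Col1a2 was 0.48, 0.22 and 0.23 in DJB rats, against 0.20, 0.15 and 0.01 in sham rats. These groups did not overlap either, with a shift of 0.19 and the same p. The pairs were set up after the data were seen, with Col1a1, Col1a2 and Col5a2 already among the members of lowest p. Since no exact p can fall below 0.1 here, no pair could pass the adjusted threshold. The test therefore cannot decide whether any pair shifted. How often pairs of other genes separate in this way was not tested. The other 7 pairs gave exact p between 0.2 and 1.

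The DJB rats differed among themselves, and so did the sham rats. For each of Col1a1, Col1a2, Col3a1, Col5a1 and Col5a2, DJB 1 was the highest and DJB 3 the lowest of the DJB arrays, and sham 1 was the highest of the sham arrays. Col5a3 did not share this order, with DJB 3 its highest DJB array and sham 2 its highest sham array. DJB 1 exceeded DJB 3 by 0.72 for Col1a1 and by 0.52 for Col3a1, about as much as the groups differed. The sham arrays spanned 0.66 for Col1a1 and 0.41 for Col3a1. For Col1a2 the arrays spanned 0.48 in DJB and 0.49 in sham. Over all members DJB 1 was the highest DJB array for 14 of 25, where 57.6% of all genes had it highest. After centring each array on its median this was 8 of 25, where 35.9% of all genes had it highest, and the 5 genes just named were among the 8. DJB 1 was the highest and DJB 3 the lowest DJB array for 12 of 25 members, where 31.3% of all genes had this order, and after centring for 7 of 25, where 21.2% had it. DJB 3 was the lowest DJB array for 15 of 25 members, where 43.5% of all genes had it lowest, and after centring for 11 of 25, where 38.1% had it lowest. Sham 1 was the highest sham array for 10 of 25 members, where 27.8% of all genes had it highest.

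**Figure D3:**
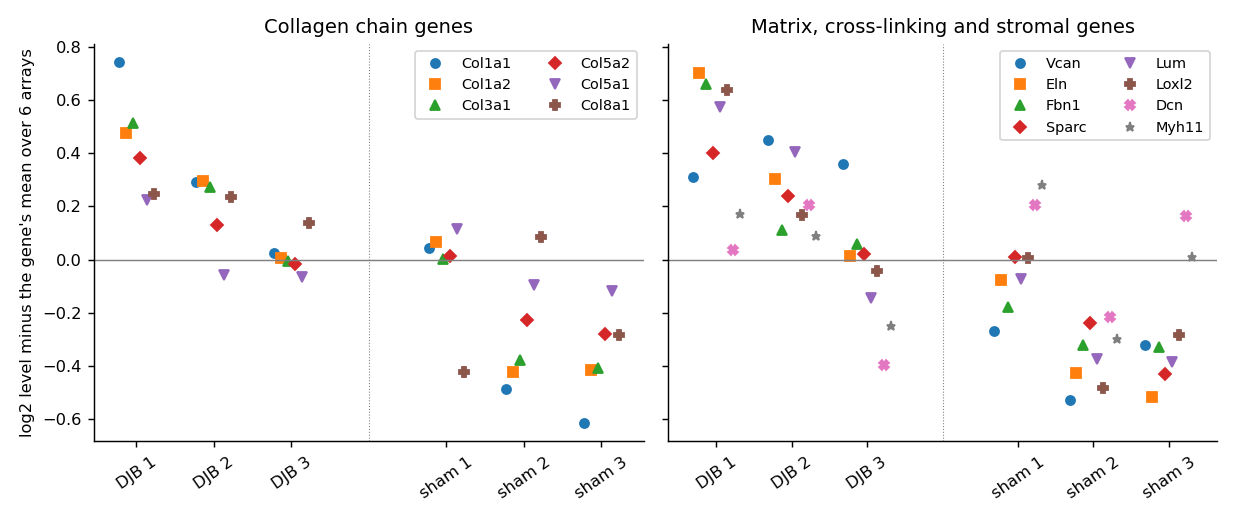
Log2 level minus the gene's own mean over the 6 arrays (y axis) on each array (x axis, DJB arrays left of the dotted line and sham arrays right of it), for 6 collagen chain genes in the left panel and for 8 matrix, cross-linking and stromal genes in the right panel. Col1a1, Col1a2, Col3a1 and Col5a2 stand highest on DJB 1 and near their mean on DJB 3 and sham 1, while Vcan stays above its mean on all DJB arrays.

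The SD of the DJB arrays exceeded that of the sham arrays for 12 of 25 members, where 56.7% of all genes showed this, and the median SD was 0.13 in DJB and 0.15 in sham. Among the fibrillar genes it was 5 of 10. After centring each array on its median it was 10 of 25 members, where 51.2% of all genes showed this, and 2 of 10 fibrillar genes, Col2a1 and Col11a2. The widest DJB spreads were those of Col10a1 (0.39, against 0.35 in sham), Col1a1 (0.36, against 0.35), Col14a1 (0.30, against 0.14) and Col6a4 (0.30, against 0.25). Col8a1 and Col27a1 went the other way, with SDs of 0.06 and 0.09 in DJB against 0.26 and 0.27 in sham. With 3 arrays a group these SDs are themselves imprecise, and they were not tested.

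**Figure D4:**
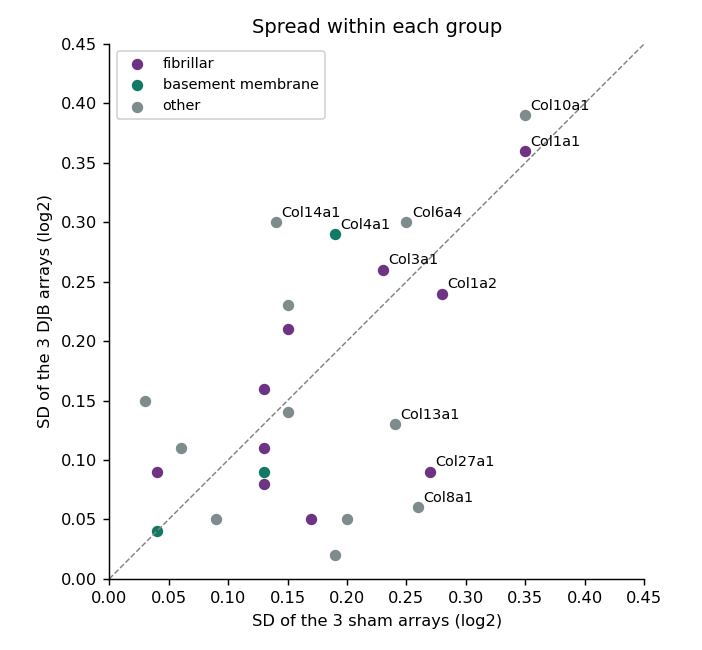
SD of the 3 DJB arrays (y axis) against the SD of the 3 sham arrays (x axis), on the log2 scale, with 1 point per collagen chain gene, coloured by class; the dashed line marks equal SDs. Points fall on both sides of the line, with Col14a1 and Col4a1 above it and Col8a1 and Col27a1 well below it.

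Genes that act on collagen chains after their synthesis were measured for 27 of 30 listed. Of these, 0 passed the adjusted threshold, which 0.772% of all genes tested passed. At an unadjusted p under 0.05, 3 were higher (Loxl2, P4ha1 and Loxl1) and 2 lower (P4hb and P4ha3) in the limma fit, where 9.82% of all genes were higher and 4.45% lower. These counts lie near the shares of all genes. Loxl2, a lysyl oxidase that cross-links collagen and elastin, had levels of 7.68 in DJB 1 and 7.21 in DJB 2, against 7.05, 6.56 and 6.76 in sham rats, with a difference of 0.51 ± 0.18. DJB 3 again lay within the sham range. P4ha1, the catalytic subunit of the enzyme that hydroxylates collagen prolines, differed by 0.40 ± 0.15, and P4hb, its partner subunit that also serves as a general disulfide isomerase, by -0.27 ± 0.10. The groups of neither gene overlapped, with DJB higher for P4ha1 and lower for P4hb. Over the list, such separation was found for 4 of 27 genes with DJB higher and for 2 with DJB lower. Among all genes the shares were 14.5% and 6.56%, so these counts lie near them. Serpinh1, the collagen chaperone HSP47, was named after its values were seen and stood at 9.87, 9.51 and 9.17 in DJB rats against 9.36, 9.05 and 8.91 in sham rats.

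Collagen breakdown genes were measured for all 20 listed. They had a median difference of 0.06, and 0 passed the adjusted threshold, which 0.772% of all genes tested passed. The membrane protease gene Mmp14, whose product cleaves fibrillar collagen and activates the gelatinase of Mmp2, had levels of 8.71, 8.54 and 8.54 in DJB rats, against 8.24, 8.32 and 8.38 in sham rats. Its groups did not overlap, and it differed by 0.28 ± 0.10 (limma adjusted p = 0.245). Groups separated with DJB higher for 2 of these 20 genes, where 14.5% of all genes had this. Mmp16 differed by 0.35 ± 0.13 and Mmp7, the matrilysin of Paneth cells in mice, by 0.24 ± 0.15.

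Of 20 matrix partner genes listed, 16 were measured and 1 passed the adjusted threshold, which 0.772% of all genes tested passed. Vcan, which encodes the large proteoglycan versican, rose to 5.82, 5.96 and 5.87 in DJB rats, against 5.24, 4.98 and 5.19 in sham rats. The difference was 0.75 ± 0.10 (limma adjusted p = 0.0171), on a row below the median of all rows, and the call ended without sham 2 (adjusted p = 0.0746), sham 3 (0.0682), DJB 2 (0.0896) or DJB 3 (0.050). Eln, elastin, stood at 8.06, 7.66 and 7.37 in DJB rats against 7.28, 6.93 and 6.84 in sham rats, a difference of 0.68 ± 0.18 (adjusted p = 0.154). Fbn1, the microfibril protein fibrillin, differed by 0.55 ± 0.16 (adjusted p = 0.171). For both genes all DJB values lay above all sham values, as for 4 of the 16 measured, where 14.5% of all genes had this. The median of the list was 0.21, with 6 of 16 members higher and 0 lower at an unadjusted p under 0.05, where 9.82% of all genes were higher and 4.45% lower. The list is not uniform, since decorin, Dcn, which was named after its values were seen, differed by -0.10 ± 0.17 with DJB 3 lowest at 9.64.

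Laminins and other basement membrane partners, 9 of 15 measured, had a median difference of 0.01. Lamb3, a chain of the laminin that anchors epithelium, had levels of 6.82, 7.08 and 5.79 in DJB rats, against 7.12, 7.46 and 7.98 in sham rats. Its groups did not overlap, DJB 3 stood far below the rest, and the difference of -0.96 ± 0.32 did not pass (limma adjusted p = 0.230). Groups separated with DJB lower for 1 of the 9 genes, where 6.56% of all genes had this. Lama1 differed by 0.27 ± 0.11. Of 9 collagen receptor genes, 0 passed, where 0.772% of all genes tested did. Itga2 and Itgb1, subunits of the collagen-binding integrin of epithelium and platelets, differed by 0.31 ± 0.10 and 0.26 ± 0.10. For both, all DJB values lay above all sham values, which held for 2 of the 9 and for 14.5% of all genes. Itga1 differed by -0.30 ± 0.13. Of 14 genes of TGF-beta signalling, the pathway known to drive collagen transcription, 0 passed, beside the same 0.772% of all genes. Tgfb2, one of its ligands, had levels of 6.29, 5.84 and 5.70 in DJB rats, against 5.36, 5.44 and 5.58 in sham rats (0.49 ± 0.15, limma adjusted p = 0.200). Its row lay below the median of all rows. Tgfbr3 and Smad7 differed by -0.29 ± 0.13 and -0.32 ± 0.16.

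**Figure D5:**
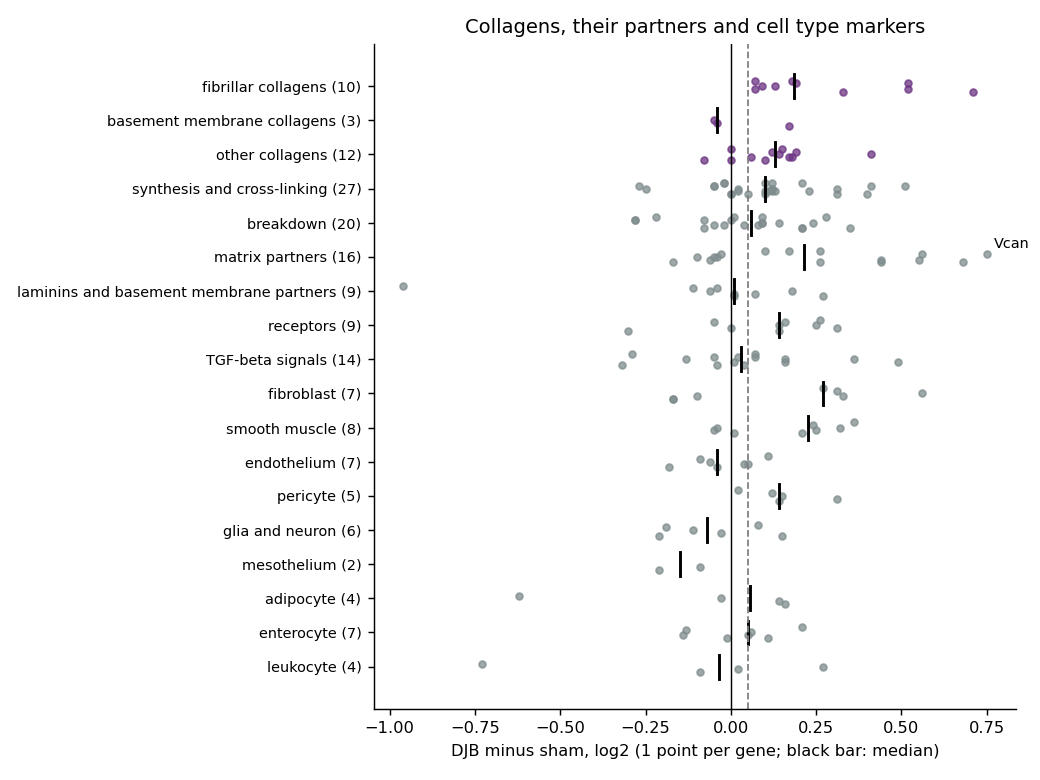
Difference DJB minus sham on the log2 scale (x axis) for every gene measured in the 3 collagen classes (purple) and in the lists of partner genes and cell type markers (grey), with 1 point per gene, the number of genes in brackets and the list median as a black bar; the dashed line is the median of all genes tested, 0.05. Vcan, at 0.75, is the gene among them that passed the adjusted threshold.

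Markers were read for 9 cell types that whole ileum can hold. Of these markers 0 passed limma's adjusted threshold, which 0.772% of all genes tested passed. The mean level of 7 fibroblast markers was 8.30, 8.17 and 7.70 in DJB rats, against 7.92, 7.78 and 8.03 in sham rats, so DJB 1 and DJB 2 stood above and DJB 3 below all sham arrays. Lumican, Lum, a proteoglycan of collagen fibrils that stands in this list and among the matrix partners, differed by 0.56 ± 0.18, while Pdgfra, a receptor that marks fibroblasts, differed by -0.17 ± 0.13 and was named after its values were seen. The mean of 8 smooth muscle markers was 10.33, 10.35 and 10.10 in DJB rats, against 10.29, 9.82 and 10.18 in sham rats, with sham 2 lowest. The mean of 5 pericyte markers was 7.78, 7.60 and 7.32 in DJB rats, against 7.44, 7.40 and 7.41 in sham rats, and that of 7 endothelial markers was 7.43, 7.21 and 6.93, against 7.22, 7.16 and 7.25. In each of these lists DJB 3 was the lowest DJB array, as for Col1a1, Col1a2, Col3a1, Col5a1 and Col5a2. The same held for the means of the glia and neuron, mesothelium, adipocyte and enterocyte markers, but not of the leukocyte markers. Taken singly, 43.5% of all genes had DJB 3 lowest of the DJB arrays. The mean over all genes tested was 6.87, 6.75 and 6.74 on DJB 1, DJB 2 and DJB 3. Sham 3 was the highest sham array for the fibroblast and endothelial means, at 8.03 and 7.25. It was the lowest for Col1a1 and Col3a1, at 9.18 and 9.14. Sham 1 was highest for the smooth muscle and pericyte means, as for Col1a1 and Col3a1. The part of these cell types in the collagen differences was not tested.

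Means of the fibrillar genes were 7.74, 7.61 and 7.54 in DJB rats, against 7.46, 7.37 and 7.22 in sham rats, so that by this average the groups did not overlap. Col1a1, Col1a2 and Col3a1 had the largest differences within it, 0.52 to 0.71. The means over all 25 members separated as well, at 7.04, 6.97 and 6.90 in DJB against 6.85, 6.86 and 6.69 in sham. Those of the basement membrane and of the other chain genes overlapped. Taken singly, 0 of the 10 fibrillar genes had all DJB values above all sham values, where 14.5% of all genes did. The means of 7 enterocyte markers lay between 12.21 and 12.40 in DJB and between 12.17 and 12.53 in sham. The medians of the other marker lists were -0.07 for 6 genes of glia and neurons, -0.15 for 2 of mesothelium, 0.06 for 4 of adipocytes and -0.03 for 4 of leukocytes.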

How the data were processed

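The deposited table holds log2 expression values for 29214 rows and 6 arrays. They were normalised with RMA, as named per the submitters' processing notes. The values were used as deposited. Names came from the platform annotation: 15310 rows had 1 symbol, 323 several and 13581 none. Rows with 1 symbol were kept, the row with the highest mean standing for each gene. All 25 members were found in the RefSeq table of GRCr8, which lists 44 collagen chain symbols. The other 19, among them Col4a2, Col6a1 and Col18a1, were not analysed here. No genome build was found for the array rows.

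DJB minus sham was fitted over all 14506 genes with limma 3.58.1 (lmFit and eBayes, no covariate, two-sided, Benjamini-Hochberg) in R 4.3.3 and tested on simulated data. Figures used matplotlib 3.10.9 in Python 3.11.15. Members and gene lists were chosen with earlier results of these data known. Values on each array are given for the 10 members of highest mean, the 6 of lowest p and a fixed set, and up to 3 genes of lowest p come from each other list, with called ones. Alternatives tried were a block for replicate number, other scalings, a filter on dim rows, another eBayes setting, other row choices and leaving out each array. Chain pairs and counts after centring were added after seeing the data. Replicates are separate rats, per the labels.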

Additional observations from a re-analysis of the deposited data

How the results depend on the processing

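The count of 0 collagen genes past the adjusted threshold was found under all 14 alternatives, with the lowest member p at 0.0603 (adjusted, limma), for Col1a1 with the replicate number as a block. The block gave 5 members higher at an unadjusted p under 0.05, as without it, and brought all genes called to 50, against 112. Same-numbered arrays correlated at 0.0053, -0.1205 and -0.1493 in their deviations from the group mean, and arrays of different number at -0.057 to 0.1699. With 3 arrays a group these values cannot tell whether the numbers pair the rats. All genes called were 51 with all rows tested, 225 with dim rows left out, 313 with trend and robust eBayes, and 33 to 108 without 1 array. The basement membrane median was 0.17 with dim rows left out, where Col4a1 alone remained. Members of higher mean in DJB numbered 20 after either scaling and 18 to 23 without 1 array. Of the 25 members, 18 kept their direction throughout. After repeated quantile normalisation and after centring, Col10a1 turned to -0.04 and -0.03 and Col16a1 to -0.03 in both. Without 1 array the differences ranged from -0.20 to 0.22 for Col10a1, -0.04 to 0.05 for Col16a1, -0.03 to 0.14 for Col5a1, -0.05 to 0.27 for Col6a4, 0.00 to 0.21 for Col13a1, -0.14 to 0.01 for Col17a1, 0.00 to 0.15 for Col23a1, -0.03 to 0.22 for Tie1, -0.17 to 0.01 for Kdr, -0.04 to 0.30 for Adipoq and -0.28 to 0.13 for Ptprc. The cause was not tested. Vcan lost its call with the block (adjusted p = 0.0832) and was not tested where dim rows were left out.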
